A study of Mus musculus with 8 samples.

Results

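The 41 genes described here are 23 complement components, receptors and regulators and 18 acute phase genes, picked by symbol from the 32531 gene symbols of a count table of mouse pancreatic islets. Islet RNA was sequenced from 4 control and 4 β-tetO-NICD mice. Control mice were RIP-Cre+, Rosa26-rtTA+ and tetO_NICD-, and β-tetO-NICD mice were RIP-Cre+, Rosa26-rtTA+ and tetO_NICD+. All mice therefore carried Cre under the rat insulin promoter and the Dox-dependent transactivator rtTA, all were on a mixed background of C57BL/6J, 129X1/SvJ and BALB/c, and all received Dox for 8 weeks in the drinking water. Where the tetO_NICD allele was present, Dox switched on NICD, the intracellular domain of Notch1 that signals once it is freed from the receptor, in cells with Cre activity, which within the islet are β cells. The labels give no age. Whole islets were lysed, so that RNA from macrophages, stroma, vessels, ducts and attached acinar tissue was measured together with endocrine RNA, and fewer cells of a type and less RNA per cell cannot be told apart in any result.

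Complement is a cascade of serum and cell-surface proteins. C1q binds antibody complexes or dying cells and activates the proteases C1r and C1s, lectins do the same through the MASP proteases, and both routes cut C4 and C2 to build the enzyme that cleaves C3, while factor B and factor D amplify the cleavage of C3 on surfaces. Regulators such as C1 inhibitor, CD55, CD46 and CD59 stop the cascade on host cells. Acute phase proteins are plasma proteins made mainly by the liver, whose synthesis is raised by cytokines such as interleukin 6 and interleukin 1 through STAT3, C/EBP and NF-kB factors. Macrophages are the usual source of C1q, and fibroblasts and epithelial cells make many of the other components.

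Of the 41 genes, 30 passed a minimum of 10 counts in at least 4 of the 8 libraries, and 11 did not (Cfd, Hpx, Saa1, Saa2, Saa3, Orm1, Orm2, Ptx3, Fga, Fgg and A2m). Saa2 and Orm1 had no count in any library. Hp passed the minimum through the β-tetO-NICD libraries, since 3 of the 4 controls had 2 counts or fewer. Whether RNA differed between the groups was asked with edgeR's quasi-likelihood test over all 15082 genes that passed the minimum, with a Benjamini-Hochberg adjusted p under 0.05 as the threshold. Hp, Clu, C1rl and C1qa, 4 of the 30 tested members, were higher in β-tetO-NICD islets, where 4.19% of all tested genes were called higher. No member was called lower, against 2.57% of all tested genes. Without adjustment, p was under 0.05 for 9 members with higher RNA (16.6% of all tested genes) and for 1 with lower RNA, Masp2 (15% of all tested genes). DESeq2 called 7 members higher (C2, Cfb and Serping1 in addition), where it called 9.91% of all genes higher, and 1 lower, again Masp2, beside 8.25% of all genes. By limma-voom 5 were higher (Cfb in addition), beside 4.12% of all genes, and 0 lower, beside 3.06%. The log2 fold change was above 0 for 21 members and below 0 for 9, with a median of 0.36, whereas the median over all tested genes was 0.00075 and 50.1% were above 0. Without β-tetO-NICD library 1, 9 members were called higher (the 4 named with C1qb, C1qc, C2, Cfb and Serping1) and 1 lower (Masp2), while the number of called genes overall rose from 1020 to 5010. The groups did not overlap in 5 members, the 4 called genes and Cfb, each time with β-tetO-NICD higher, and the same held for 8.22% of all tested genes. In 7.92% of all tested genes, and in 0 members, every β-tetO-NICD library was below every control.

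Libraries held between 22430941 and 25950164 counts in controls and between 21701223 and 26413146 in β-tetO-NICD. Levels are given as CPM, the count over the TMM-scaled library total in units of 1000000, and 3 counts, taken as the floor, correspond to 0.0995 to 0.151 CPM across the 8 libraries. Notch1, whose coding sequence the transgene carries in part, was at 41.6 to 64.9 CPM in controls and at 573 to 1321 CPM in β-tetO-NICD. The libraries also differed in ways that the groups do not explain. Gene level against transcript length had a positive trend in 4 libraries, controls 1, 2 and 4 with β-tetO-NICD library 1 (rho across genes between 0.418 and 0.497) and a negative one in control 3 and β-tetO-NICD libraries 2, 4 and 5 (between -0.521 and -0.174), so that most of one direction lay in each group. Eif2s3y, a Y-linked gene, had 1300 to 1527 counts in 3 libraries (controls 2 and 4, β-tetO-NICD library 5) and no more than 1 elsewhere, although the study states that males were used. Results are therefore given also with these properties in the fit where a call rested on them, and p values measure the spread between these mice only.

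Promoter sequence is shown for C1rl, which rose, for its neighbour C1s1 and for C3 and Saa1, which did not pass the test or the count minimum, because all of them hold the same short motif. The sequences are the 250 bases before the annotated start, from RefSeq (GRCm38.p6), and 29 of the 41 genes had at least 1 such window, C1s1 and Cp having 2 each. Those without were C1qa, C2, C4b, Masp1, Cfb, Cfi, Serping1, Clu, Hp, Orm1, Lbp and A2m, so that of the called members only C1rl enters the motif shares. Capitals mark every match to TTGCNNAA, the C/EBP letters, or TGGGAA, the RBPJ letters (RBPJ is the DNA-binding partner of NICD), on either strand. The C1rl window is chr6:124492863-124493112 on the plus strand, the C1s1 window is chr6:124542360-124542609 on the minus strand, the C3 window is chr17:57228137-57228386 on the minus strand, and the Saa1 window is chr7:46742981-46743230 on the minus strand.
C1rl: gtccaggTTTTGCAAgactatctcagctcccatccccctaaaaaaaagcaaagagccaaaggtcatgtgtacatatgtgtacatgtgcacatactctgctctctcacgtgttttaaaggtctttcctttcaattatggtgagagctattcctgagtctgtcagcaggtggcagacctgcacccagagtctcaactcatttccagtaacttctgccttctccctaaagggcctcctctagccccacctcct
C1s1: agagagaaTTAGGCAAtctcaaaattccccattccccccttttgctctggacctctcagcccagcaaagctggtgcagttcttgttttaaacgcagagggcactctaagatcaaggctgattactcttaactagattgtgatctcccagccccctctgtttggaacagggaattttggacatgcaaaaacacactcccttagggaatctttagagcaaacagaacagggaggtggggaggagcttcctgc
C3: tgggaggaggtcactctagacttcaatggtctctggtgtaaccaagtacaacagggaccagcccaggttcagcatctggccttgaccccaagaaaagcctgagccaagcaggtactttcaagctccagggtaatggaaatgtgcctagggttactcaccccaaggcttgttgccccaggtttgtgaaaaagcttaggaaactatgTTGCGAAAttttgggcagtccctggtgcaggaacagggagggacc
Saa1: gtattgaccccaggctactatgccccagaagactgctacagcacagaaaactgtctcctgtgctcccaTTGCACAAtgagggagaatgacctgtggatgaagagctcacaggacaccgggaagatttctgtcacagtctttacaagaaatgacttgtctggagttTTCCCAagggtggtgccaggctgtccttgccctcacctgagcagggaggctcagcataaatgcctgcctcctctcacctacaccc

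In these windows the C/EBP letters lie at -243 in C1rl, -242 in C1s1, -45 in C3 and -182 in Saa1, counted from the start, and the second C1s1 window, which overlaps the one shown, holds none of the motifs. Saa1 also holds the RBPJ letters at -85. Over the 31 promoters of the members, 13 held the C/EBP letters, which 9.56% of all 32851 RefSeq promoters hold, and 9 held the RBPJ letters, which 21.6% of all promoters hold. TTCNNNGAA, the STAT letters, were in 3 member promoters and in 7.02% of all, and GGGANTTCC, the NF-kB letters, were in 0 and in 1.43%. STAT and RBPJ letters can overlap. A match describes letters in a window and shows no binding.

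The classical pathway begins with C1q, a hexamer built from the A, B and C chains, whose genes C1qa, C1qb and C1qc lie side by side on chromosome 4 (GRCm38; C1qa and C1qc are 2852 bases apart, and C1qc and C1qb 3617). All 8 tested genes of the C1 complex and classical pathway had a log2 fold change above 0 (median 0.75), although C1qc turned below 0 with a length offset and C4b did so without control 1, control 3 or β-tetO-NICD library 5, and 2 of them, C1qa and C1rl, were called. C1qa (chr4:136895917-136898803, minus strand) was at 69.0, 62.1, 97.9 and 81.3 CPM in controls 1 to 4 and at 111.6, 177, 131 and 181 CPM for β-tetO-NICD libraries 1, 2, 4 and 5. The lowest β-tetO-NICD library, library 1, lay above the highest control, control 3, and the groups did not overlap. Mean ± SD (n = 4 libraries in each group here and below) was 77.6 ± 15.7 CPM for controls against 150.3 ± 34.3 CPM for β-tetO-NICD, a log2 fold change of 0.95 (SE 0.21, adjusted p = 0.0273, edgeR). With the direction of the length trend as a covariate the log2 fold change was 0.70 (adjusted p = 0.0511), and with an offset for transcript length it was 0.43 (adjusted p = 0.0649). The call thus ended in both fits that take the length trend into account, as it did when only the 5 libraries lacking Eif2s3y were fitted (0.75, adjusted p = 0.338) and in 6 of the 8 fits that left out a library. Those 5 libraries gave 122 called genes in all, against 1020 in the main fit. Hp, Clu and C1rl were not called there either. In the 8 fits that left out a library the log2 fold change of C1qa was between 0.85 and 1.09.

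C1qb was at 14.1, 15.1, 26.37 and 20.7 CPM in controls and at 18.2, 34.6, 34.9 and 40.5 CPM in β-tetO-NICD libraries. Only β-tetO-NICD library 1 fell inside the control range, and the log2 fold change of 0.75 (SE 0.28) had an adjusted p of 0.113. C1qc was at 14.0, 17.4, 21.4 and 22.6 CPM in controls and at 17.7, 29.5, 25.6 and 27.6 CPM in β-tetO-NICD, again with library 1 inside the control range, and its log2 fold change of 0.41 (SE 0.21) had an adjusted p of 0.198. With the length offset the log2 fold changes of C1qb and C1qc were 0.22 and -0.07, so the sign of C1qc turned. Without β-tetO-NICD library 1 they were 0.94 (adjusted p = 0.0135) and 0.55 (adjusted p = 0.0452), and both passed the threshold.

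Because macrophages are the usual source of C1q, the chains were set beside 12 macrophage markers fixed with the lists. The summed level of the chains was 97.1, 94.6, 146 and 125 CPM in controls and 147, 241, 192 and 249 CPM in β-tetO-NICD libraries. The summed markers were at 89.5, 127, 98.7 and 111 CPM in controls and at 123, 118, 124 and 156 CPM in β-tetO-NICD, and these groups overlapped. The ratio of the C1q sum to the marker sum came to 1.08, 0.743, 1.48 and 1.12 for controls against 1.19, 2.05, 1.54 and 1.60 for β-tetO-NICD, whose library 1 lay below control 3. All 12 markers were tested, with 9 log2 fold changes above 0 and 3 below, and only Cd14, a co-receptor for bacterial lipopolysaccharide, was called (log2 fold change 1.73, SE 0.26, adjusted p = 0.0054). Of the others, Aif1 (1.04), Tyrobp (0.80), Fcer1g (0.80) and Fcgr1 (0.73) had adjusted p values between 0.0857 and 0.157, and with the length offset their log2 fold changes were 0.36, 0.09, 0.05 and 0.59. Ptprc was at 0.32 and passed with the length offset (0.61, adjusted p = 0.0388). Lyz2 was at 0.07, Cd68 at 0.00, Cx3cr1 at -0.23 and Mrc1 at -0.25, none past the threshold. Adgre1 (F4/80) was at -0.38 (SE 0.23, adjusted p = 0.270) and Csf1r, the receptor for the growth factor CSF1, at 0.09 (SE 0.24, adjusted p = 0.797). The study itself reported that the amount and distribution of macrophages in the islets were unchanged in β-tetO-NICD mice. The part of macrophage number in the C1qa result was not tested here.

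**Figure D1:**
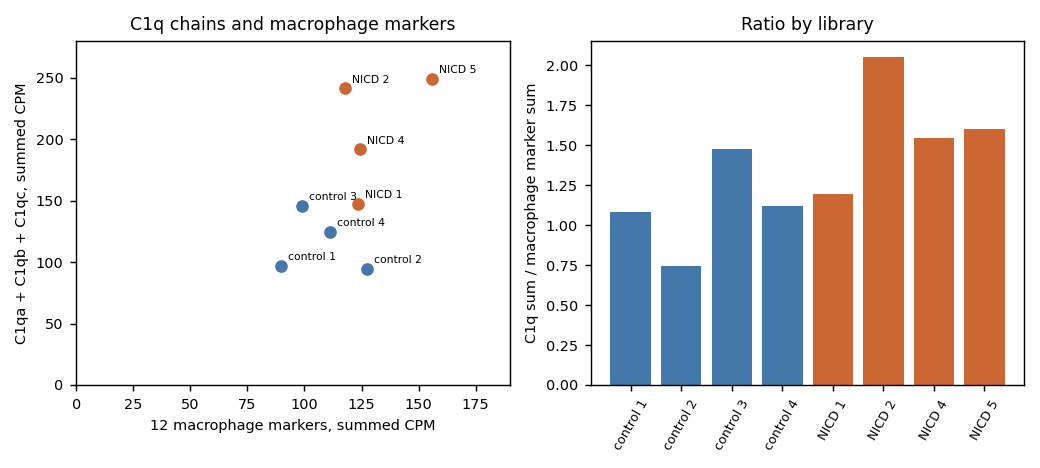
Left, the summed CPM of C1qa, C1qb and C1qc (y axis) against the summed CPM of 12 macrophage markers (x axis), 1 point per library, controls in blue and β-tetO-NICD in orange. Right, bars of the ratio of both sums per library, between 0.743 and 1.48 in controls and between 1.19 and 2.05 in β-tetO-NICD.

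C1r and C1s are the proteases that C1q activates, and C1rl is a C1r-like protease known for cleaving prohaptoglobin, the precursor of the Hp product. The genes lie together on chromosome 6, C1rl and C1ra 1762 bases apart and C1ra and C1s1 6902. C1rl (chr6:124493113-124510643, plus strand) was at 3.64, 3.71, 1.90 and 3.29 CPM in controls and at 13.7, 11.3, 10.6 and 11.1 CPM in β-tetO-NICD libraries. Every β-tetO-NICD library was above every control, with 10.6 CPM as the lowest against 3.71 CPM as the highest, and within β-tetO-NICD the libraries lay close together. Mean ± SD was 3.13 ± 0.845 against 11.7 ± 1.38 CPM, a log2 fold change of 1.90 (SE 0.24, adjusted p = 0.0022, edgeR). It was 1.86 with the length offset and 2.22 with the length trend as a covariate, and the call held in both.

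The neighbours of C1rl did not pass the test. C1ra was at 7.19, 22.2, 6.84 and 12.5 CPM in controls and at 17.2, 20.9, 17.7 and 26.7 CPM in β-tetO-NICD, where control 2 lay among the β-tetO-NICD libraries (log2 fold change 0.76, SE 0.36, adjusted p = 0.177). Without control 2 the value was 1.23 (adjusted p = 0.0475). C1s1 was between 11.6 and 40.8 CPM in controls and between 25.1 and 30.96 CPM in β-tetO-NICD (0.31, SE 0.34, adjusted p = 0.528), with control 2 the highest of all libraries. C1ra shares 59.3% of the 31-base stretches of its transcripts with other genes, mostly with C1rb, so the split of reads between these genes is uncertain. C1rb had 49, 25, 8 and 2 counts in controls against 1, 0, 2 and 0 in β-tetO-NICD. C1s1 shares 33.5% of its 31-base stretches with C1s2, which had 3, 3, 1 and 1 counts in controls against 2, 0, 1 and 0 in β-tetO-NICD.

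C2 and C4b give the parts of the classical C3 convertase. C2 was at 4.84, 7.17, 5.54 and 6.81 CPM in controls and at 6.79, 13.1, 13.3 and 9.72 CPM in β-tetO-NICD libraries, with library 1 inside the control range (log2 fold change 0.82, SE 0.25, adjusted p = 0.0720). C2 passed without that library (0.99, adjusted p = 0.0100) and with the acinar score as a covariate (0.90, adjusted p = 0.0321). It shares 40.8% of its 31-base stretches with other genes, mostly with the readthrough gene Gm20547, so its counts are uncertain too. C4b ranged from 8.86 to 62.5 CPM in controls and from 22.4 to 52.3 CPM in β-tetO-NICD (0.16, SE 0.52, adjusted p = 0.845). The control range of C4b held all β-tetO-NICD values, with control 2 highest and control 3 lowest. Its log2 fold change was -0.03 without control 1, -0.14 without control 3 and -0.12 without β-tetO-NICD library 5. C4b shares 48.3% of its 31-base stretches with C4a, which had no row in the counts used here, so the values given for C4b may include reads of C4a.

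Of the lectin pathway proteases, Masp2, which cuts C4 and C2, was at 3.96, 4.09, 0.830 and 2.72 CPM in controls and at 1.61, 0.436, 0.763 and 1.46 CPM in β-tetO-NICD. Control 3 was the low control and fell among the β-tetO-NICD libraries, and the log2 fold change was -1.45 (SE 0.54, adjusted p = 0.116, edgeR). Without β-tetO-NICD library 1 it was -1.72 (adjusted p = 0.0499), and with the length trend as a covariate -0.58 (adjusted p = 0.555). Masp1 was at 2.19 CPM or less in every library (-0.28, SE 0.67, adjusted p = 0.785).

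C3, the component on which all routes meet, was at 19.0, 101, 15.6 and 46.3 CPM in controls and at 70.8, 18.5, 17.3 and 56.7 CPM in β-tetO-NICD. Both groups held a low and a high pair of libraries, and the log2 fold change was -0.16 (SE 0.64, adjusted p = 0.878). Cfb, which encodes factor B, the catalytic part of the alternative pathway convertase (chr17:34856374-34862518, minus strand), was at 2.26, 12.1, 3.76 and 6.12 CPM in controls and at 12.6, 24.4, 15.8 and 23.2 CPM in β-tetO-NICD libraries. The groups touched without overlapping, since control 2 lay just under library 1. Mean ± SD was 6.05 ± 4.32 against 19.0 ± 5.74 CPM, and the log2 fold change of 1.65 (SE 0.46) had an adjusted p of 0.0597 in edgeR, 0.0036 in DESeq2 and 0.0345 in limma-voom. Without control 2 the log2 fold change of Cfb was 2.24 and the adjusted p 0.0186, and without β-tetO-NICD library 1 they were 1.80 and 0.0190. Cfb shares 75.5% of its 31-base stretches with the readthrough gene Gm20547, which had 17, 0, 6 and 0 counts in controls against 19, 1, 0 and 0 in β-tetO-NICD, beside 49, 286, 95 and 151 and 265, 560, 475 and 461 counts of Cfb itself. Control 1, the lowest Cfb control, thus had 17 counts of Gm20547 against 49 of Cfb.

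Cfp (properdin, which stabilises the alternative convertase) was between 1.66 and 3.59 CPM in controls and between 2.49 and 4.48 CPM in β-tetO-NICD (log2 fold change 0.43, SE 0.31, adjusted p = 0.344). Cfd, the protease factor D, which adipocytes make, had 0 counts in 7 libraries and 5 counts in β-tetO-NICD library 4. The anaphylatoxin receptors C3ar1 and C5ar1, which sense the C3a and C5a fragments, were at or under 3.41 CPM in all libraries, with log2 fold changes of -0.38 (SE 0.25) and -0.30 (SE 0.41) that did not pass the test.

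**Figure D2:**
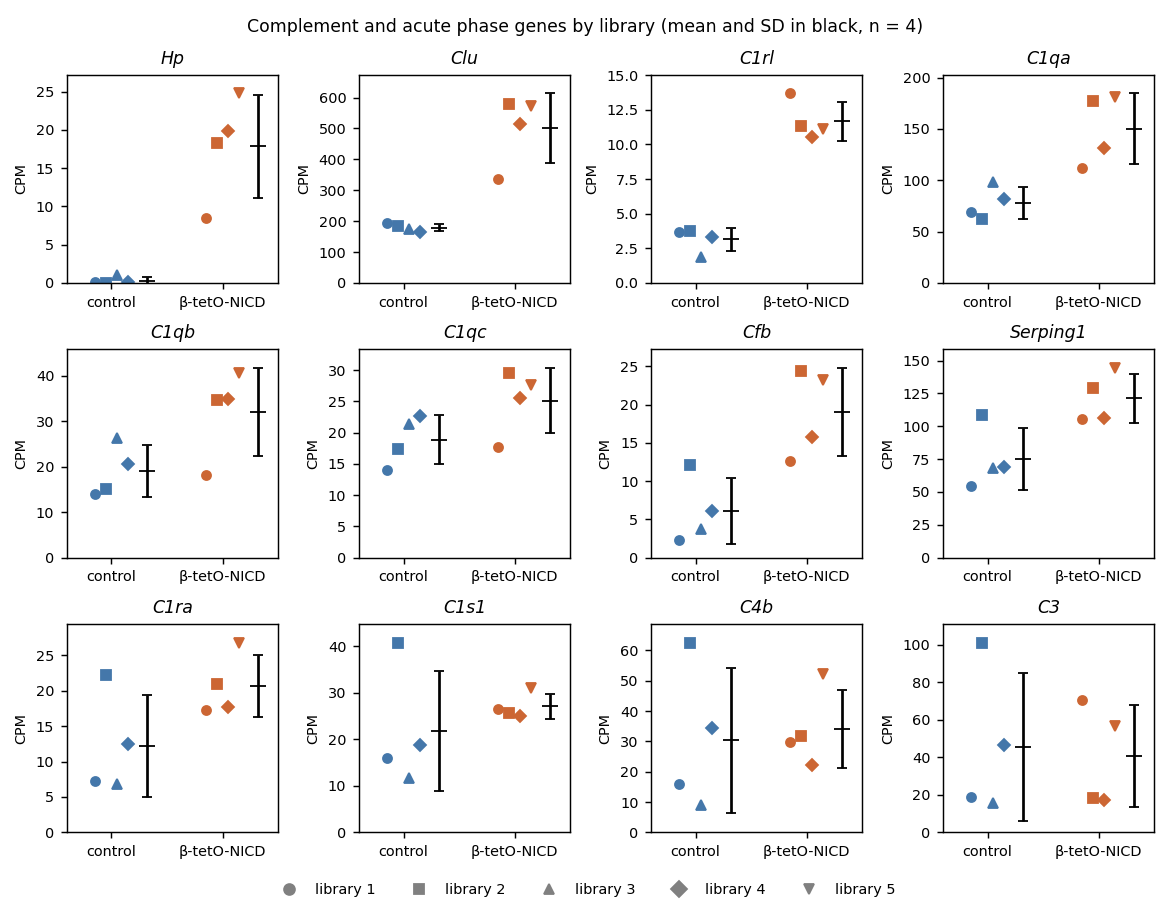
CPM (y axis, from 0) of 12 complement and acute phase genes in each library, controls in blue and β-tetO-NICD in orange, with symbols for library number and the mean ± SD of each group in black (n = 4). Hp, Clu, C1rl, C1qa and Cfb show no overlap between the groups, and C3, C4b and C1s1 show control 2 as the highest library.

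Of the 7 tested regulators, 6 had a log2 fold change above 0 and 1, Cd55, below, the median was 0.29, and only Clu was called. Clu encodes a secreted chaperone that also blocks the terminal complement complex, and per kilobase of longest transcript it was the highest of the 41 genes in both groups, at 99.0 CPM per kb in controls and 277 CPM per kb in β-tetO-NICD. Clu (chr14:65968483-65981547, plus strand) was at 192, 186, 175 and 164 CPM in controls and at 338, 580, 513 and 572 CPM in β-tetO-NICD libraries. The controls lay close together, library 1 was the lowest of the β-tetO-NICD libraries, and the groups did not overlap. Mean ± SD was 179 ± 12.4 against 501 ± 113 CPM, a log2 fold change of 1.48 (SE 0.20, adjusted p = 0.0029, edgeR). The length offset gave 1.17 (adjusted p = 9.2e-04) and the length trend as a covariate 1.29 (adjusted p = 0.0091).

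C1qa and Clu together made up between 30.3% and 48.8% of the summed CPM of all 41 genes in controls and between 49.2% and 59.6% in β-tetO-NICD. That sum was between 536 and 818 CPM in controls and between 914 and 1430 CPM in β-tetO-NICD.

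Serping1 encodes the C1 inhibitor, which inactivates C1r, C1s and the MASP proteases. It was at 54.5, 109, 68.2 and 68.9 CPM in controls and at 105, 129, 106 and 144 CPM in β-tetO-NICD libraries. Control 2 lay within the β-tetO-NICD range, and the log2 fold change of 0.69 (SE 0.22) had an adjusted p of 0.0816. Without control 2 it was 0.93 (adjusted p = 0.0348) and without β-tetO-NICD library 1 it was 0.75 (adjusted p = 0.0331), whereas the length offset gave 0.38 (adjusted p = 0.240).

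The membrane regulators and factor I differed less. Cd59a, which blocks the pore-forming complex, had a log2 fold change of 0.09 (SE 0.22), Cd46, a cofactor for C3b cleavage, of 0.11 (SE 0.50), Cd55, which breaks up convertases, of -0.11 (SE 0.37), and Cfi, the protease factor I, of 0.40 (SE 0.35), each with an adjusted p of at least 0.433. The directions of Cd46, Cd55 and Cd59a turned under other settings or without single libraries. Cr1l (Crry), the mouse regulator of C3b deposition, was between 47.2 and 62.9 CPM in controls and between 49.5 and 79.1 CPM in β-tetO-NICD (log2 fold change 0.29, SE 0.18, adjusted p = 0.277). Cd46 was high in 1 library, at 16.1 CPM in β-tetO-NICD library 5 against 2.92 to 7.42 CPM in the others.

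Haptoglobin, which binds free haemoglobin, showed the largest log2 fold change among the tested members. Hp (chr8:109575128-109579172, minus strand) had 2, 1, 26 and 2 counts in controls and 180, 418, 597 and 492 counts in β-tetO-NICD libraries, or 0.092, 0.042, 1.03 and 0.081 CPM against 8.55, 18.2, 19.8 and 24.8 CPM. Control 3 stood apart from the other controls, β-tetO-NICD library 1 was lowest in its group, and the groups did not overlap. Mean ± SD was 0.311 ± 0.479 against 17.8 ± 6.79 CPM, and the fitted log2 fold change was 5.78 (SE 0.77, adjusted p = 0.0029, edgeR).

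Since controls 1, 2 and 4 were at or under the floor of 3 counts, the ratio of Hp was also taken against that floor. The β-tetO-NICD mean was at least 129-fold higher than the floor per library of those 3 controls, and the lowest β-tetO-NICD library at least 61.8-fold. Against control 3 alone the mean was 17.4-fold and the lowest library 8.31-fold higher. With the length offset the log2 fold change was 5.38 (adjusted p = 0.0011), and among libraries of one length trend the Hp level was 8.55 CPM in β-tetO-NICD library 1 against 0.072 CPM on average in controls 1, 2 and 4, and 20.9 CPM on average in β-tetO-NICD libraries 2, 4 and 5 against 1.03 CPM in control 3. Per kilobase Hp ranked 29 of 41 in controls, at 0.231 CPM per kb, and 8 of 41 in β-tetO-NICD, at 13.3 CPM per kb.

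The other genes of haem and iron handling were not called. Hpx, which encodes hemopexin, the plasma carrier of free haem, had 2, 8, 3 and 13 counts in controls against 5, 10, 8 and 9 in β-tetO-NICD and was under the minimum. Cp (ceruloplasmin, a ferroxidase) was between 9.36 and 31.1 CPM in controls and between 12.04 and 20.6 CPM in β-tetO-NICD (log2 fold change 0.05, SE 0.37, adjusted p = 0.943). Lcn2, which binds bacterial iron carriers, was between 0.324 and 2.32 CPM in controls and between 0.522 and 2.01 CPM in β-tetO-NICD (-0.05, SE 0.60, adjusted p = 0.965). The range of Lcn2 in one group held that of the other.

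Serum amyloid A, the plasma proteins that rise most in the liver's acute phase response, was near the detection limit. Saa1 had 1 count in control 2 and 1 in β-tetO-NICD library 2 and 0 in the others, and Saa2 had 0 in all 8 libraries. Saa3, a form also made outside the liver, had 5, 2, 8 and 3 counts in controls against 16, 3, 4 and 3 in β-tetO-NICD. At this depth no difference was detectable in these genes. Orm1 had 0 counts, Orm2 had 8, 1, 0 and 0 in controls against 3, 0, 9 and 3 in β-tetO-NICD, and Ptx3 (a pentraxin that binds C1q) had 0 in controls and at most 1 in β-tetO-NICD.

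Of the remaining acute phase genes, Lbp, which presents lipopolysaccharide to CD14, was between 1.75 and 9.77 CPM in controls and between 4.51 and 11.9 CPM in β-tetO-NICD (log2 fold change 0.70, SE 0.54, adjusted p = 0.378). Lrg1, a secreted leucine-rich glycoprotein, was at most 4.30 CPM in controls, and in β-tetO-NICD it was between 1.66 and 3.67 CPM in 3 libraries and 10.9 CPM in library 5 (0.77, SE 0.55, adjusted p = 0.340). Without that library the sign of Lrg1 turned, to -0.04.

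Fibrinogen is built from the products of Fga, Fgb and Fgg. Fga and Fgg had at most 3 counts in any library, and Fgb was between 0.435 and 2.30 CPM in controls and between 0.252 and 1.19 CPM in β-tetO-NICD (log2 fold change -0.51, SE 0.62, adjusted p = 0.582). The protease inhibitor Serpina1a, an α1-antitrypsin, was at 3.18, 4.43, 1.19 and 1.87 CPM in controls and at 8.03, 5.59, 3.82 and 4.08 CPM in β-tetO-NICD. Control 2 lay within the β-tetO-NICD range, and the log2 fold change was 1.01 (SE 0.41, adjusted p = 0.137). With the length trend as a covariate the adjusted p of Serpina1a was 0.0385. It shares 65.2% of its 31-base stretches with other genes, mostly with Serpina1c, so its counts are uncertain between the copies. The counts of Serpina1a to Serpina1e together, a sum chosen after the values were seen, came to 6.64, 7.38, 2.89 and 4.42 CPM for controls against 14.5, 10.5, 10.7 and 12.2 CPM for β-tetO-NICD, with no overlap. Serpina3n was between 2.65 and 7.72 CPM in controls and between 2.90 and 5.14 CPM in β-tetO-NICD (-0.24, SE 0.37, adjusted p = 0.658), and A2m had at most 10 counts in any library.

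**Figure D3:**
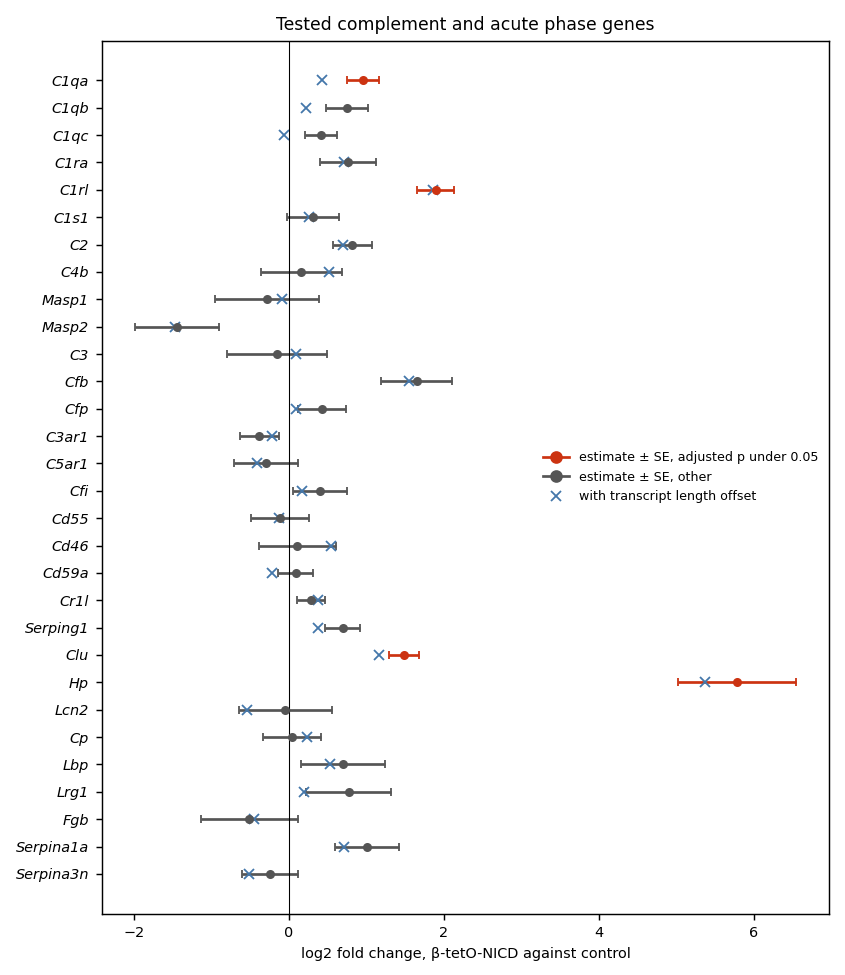
Log2 fold change of β-tetO-NICD against control (x axis) for the 30 tested genes (y axis), with bars for the SE. Red points have an adjusted p under 0.05, and crosses give the value with a transcript length offset, which lowered C1qa from 0.95 to 0.43 and left Hp at 5.38.

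The wider pathways were described with lists that do not include the 41 genes, and their counts stand beside 4.19% called higher and 2.57% called lower among all tested genes. Of 35 other complement genes, 20 were tested, 1 was higher and 0 were lower, with a median log2 fold change of -0.12. C8g, C5ar2 and Susd4, 3 of the 20, had every β-tetO-NICD library below every control (7.92% of all tested genes), with log2 fold changes of -0.66, -1.18 and -0.41 that did not pass the test, and C8g passed with the length offset (-1.11, adjusted p = 0.0220). C7 was at -4.11 (SE 1.23, adjusted p = 0.0707), with 0.737, 37.4, 0.395 and 21.3 CPM in controls against 0.950, 0.480, 1.09 and 0.906 CPM in β-tetO-NICD. Its high controls, 2 and 4, were those with Eif2s3y counts. The called gene was C4bp, a regulator that binds C4b, with a level of 1.98 ± 0.388 CPM (mean ± SD) in control islets against 4.62 ± 1.83 CPM in β-tetO-NICD islets (1.22, SE 0.31, adjusted p = 0.0461). Of 28 other acute phase genes, 16 were tested, 2 were higher and 0 were lower, with a median of 0.48. They were Serpina1b (1.58, SE 0.37, adjusted p = 0.0359), whose call ended with the length offset (1.28, adjusted p = 0.0697), and Ambp, the precursor of α1-microglobulin and bikunin (1.14, SE 0.22, adjusted p = 0.0168). Ambp was at 24.3, 22.8, 25.7 and 17.97 CPM in controls and at 33.9, 47.4, 48.4 and 70.0 CPM in β-tetO-NICD, with no overlap. The metallothioneins Mt1 (-0.77, adjusted p = 0.257) and Mt2 (-0.99, adjusted p = 0.174), which bind zinc and copper, were called lower with the length offset (-1.30, adjusted p = 0.0463, and -1.71, adjusted p = 0.0172).

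Of 40 cytokines, receptors and transcription factors of the acute phase response, 36 were tested, with a median log2 fold change of 0.04. Among these, 3 were called higher (4.19% of all tested genes) and 2 lower (2.57% of all tested genes). Nfkb2 (0.95, SE 0.21, adjusted p = 0.0299) and Relb (1.06, SE 0.25, adjusted p = 0.0382), the subunits of non-canonical NF-kB, and Il17rc, an interleukin 17 receptor chain (0.61, SE 0.13, adjusted p = 0.0277), were higher. Il1rap, the co-receptor for interleukin 1 (-1.09, SE 0.26, adjusted p = 0.0363), and Nfkbiz, a nuclear IκB protein that takes part in Lcn2 transcription (-1.41, SE 0.29, adjusted p = 0.0200), were lower. Il1r1, the interleukin 1 receptor itself, was at 0.31 (SE 0.21, adjusted p = 0.330) and was called higher with the length offset (0.60, adjusted p = 0.0156). Jak1, a kinase of the interleukin 6 receptor, was lower in every β-tetO-NICD library than in every control (-0.94, SE 0.26, adjusted p = 0.0597, and 0.0409 with the length offset), and Cebpa, a C/EBP factor, was higher in every one (0.83, SE 0.35, adjusted p = 0.139). Il6ra, the receptor of interleukin 6, was at -0.82 (SE 0.22, adjusted p = 0.0568), Stat3 at -0.29 (SE 0.16, adjusted p = 0.237) and Socs3, a feedback inhibitor and target of STAT3, at 0.76 (SE 0.24, adjusted p = 0.0816). With the length offset the log2 fold changes were -0.36 for Il6ra (adjusted p = 0.195), 0.05 for Stat3 (adjusted p = 0.812) and 0.63 for Socs3 (adjusted p = 0.130).

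Marker genes of the cell types that whole islets could hold were measured in the same libraries. Hepatocyte markers, 9 genes, summed to between 8.35 and 16.2 CPM in controls and between 11.2 and 25.3 CPM in β-tetO-NICD, and 0 of the 4 tested were called, with 3 log2 fold changes above 0 and a median of 0.93. Serpinc1 was at 1.99 (SE 0.89, adjusted p = 0.157), Apoa2 at 1.16 (SE 0.57, adjusted p = 0.185), Alb at 0.69 (SE 0.45, adjusted p = 0.299) and Tat at -0.45 (SE 0.26, adjusted p = 0.2503). Apoc3, under the count minimum, had 2, 4, 6 and 3 counts in controls against 6, 33, 24 and 25 in β-tetO-NICD, while Fabp1 and Cps1 had at most 1 count in any library. Neutrophil markers, 10 genes, summed to between 1.54 and 2.68 CPM and between 1.59 and 3.12 CPM, with Elane, Ngp and Camp at 0 in all libraries. Acinar markers, 20 genes, summed to between 52132 and 104129 CPM in controls and between 43813 and 158093 CPM in β-tetO-NICD, with library 1 highest, and with the acinar score as a covariate the calls of Hp, Clu, C1rl and C1qa held. Fibroblast and stellate markers, 10 genes, summed to between 247 and 836 CPM in controls and between 452 and 569 CPM in β-tetO-NICD, with control 2 highest, and 1 of them, Pi16, was called higher (log2 fold change 1.52, adjusted p = 0.0100). Control 2 was the highest control in 17 of the 30 tested members and β-tetO-NICD library 5 the highest of its group in 19. Mesothelial markers, 6 genes, summed to between 76.1 and 158 CPM in controls and between 17.7 and 31.9 CPM in β-tetO-NICD, and α cell markers, 4 genes, to between 11340 and 41148 CPM and between 53419 and 67084 CPM. Of the 8 β cell markers, 3 (Slc2a2, G6pc2 and Ucn3) were called lower, with Ins1 (-1.21), Ins2 (-1.20) and Iapp (-1.21) added by the length offset, and their sum was between 156429 and 197174 CPM in controls and between 71841 and 171669 CPM in β-tetO-NICD. Of the δ cell markers, Hhex was called higher (log2 fold change 1.01, adjusted p = 0.0436) and Sst was at 1.46 (adjusted p = 0.0619). None of the 7 duct markers was called, with Krt19 at 1.17 (no overlap, adjusted p = 0.0597), Spp1 at 1.25 (adjusted p = 0.0556) and Cftr at -1.37 (adjusted p = 0.0894). Endothelial markers (8 tested), lymphocyte markers (3 tested, summed to between 12.2 and 23.2 CPM in controls and between 21.8 and 30.9 CPM in β-tetO-NICD) and adipocyte markers (1 tested) had 0 calls. The part of these differences in the members' values was not tested.

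**Figure D4:**
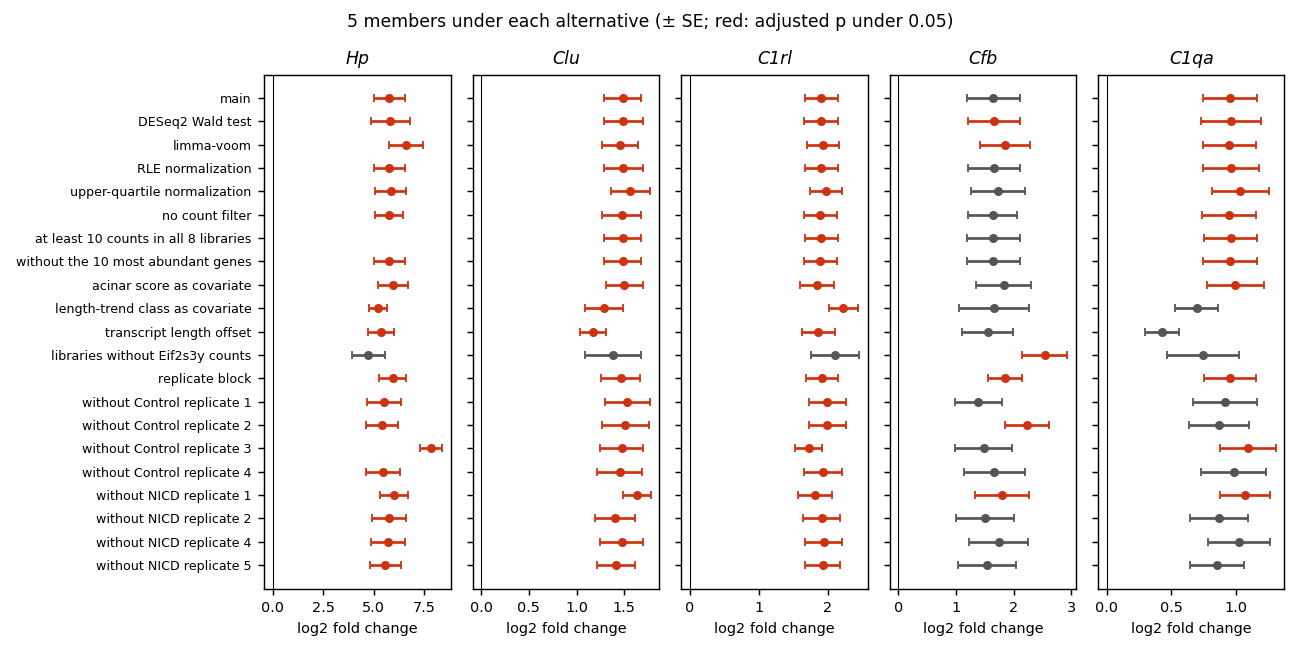
Log2 fold change with SE (x axis, scaled for each gene) of Hp, Clu, C1rl, Cfb and C1qa under each alternative analysis (y axis), red where the adjusted p was under 0.05. Hp has no value where at least 10 counts were asked of all 8 libraries. Each gene changes colour between alternatives, Hp, Clu and C1rl only in the fit of the libraries without Eif2s3y counts.

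Over the alternatives, C1rl was called in 19 of 20 and Clu in 19 of 20, and Hp in 18 of 19. The exception for each was the fit of the 5 libraries without Eif2s3y counts, in which the log2 fold changes were 2.10, 1.38 and 4.74. C1qa was called in 11 of 20 and Cfb in 6 of 20, in all of which their log2 fold changes were above 0. Leaving out each library in turn gave log2 fold changes of 5.43 to 7.86 for Hp, the highest without control 3, of 1.40 to 1.63 for Clu, of 1.72 to 1.99 for C1rl and of 0.85 to 1.09 for C1qa, which passed the threshold only without control 3 or without β-tetO-NICD library 1.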

How the data were processed

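The authors made stranded poly(A) libraries from islet RNA, assigned reads to GRCm38 transcripts by Kallisto pseudoalignment and deposited whole-number counts per gene symbol, not normalized. Kallisto divides reads of near-identical copies by estimate, so counts of paralogs are uncertain. A second deposited table holds the authors' own comparison (fold changes and p values) and was not used. Columns were assigned by name. Controls 1 to 4 and β-tetO-NICD 1 and 2 match single mice, and columns 4 and 5 match only the β-tetO-NICD group.

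The counts were compared with edgeR 4.0.16 in R 4.3.3 (TMM, glmQLFit and glmQLFTest, no covariate) over genes that reached 10 counts in 4 or more of the 8 libraries. Adjusted p values are Benjamini-Hochberg over all 15082 tested genes, and the SE is the log2 fold change divided by the square root of F. At a total of at least 21701223 counts per library, 3 counts were taken as the floor, which covers counting error only. Every pair of libraries within a group differed by a chi-square of at least 31.5 per gene, so none was counted as a copy. Coordinates, lengths and shared 31-base stretches come from GENCODE M21, which gave a length for 97.2% of tested genes.

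The 41 members and all lists were chosen with earlier results of these data known. All 41 are named, with full statistics for those past the threshold or with no overlap, and pathway genes are named if called, together with some uncalled ones chosen after their values were seen. Alternatives were DESeq2 1.42.0, limma-voom (limma 3.58.1), other normalizations and filters, acinar and length terms, the libraries without Eif2s3y counts, a replicate block and leaving out each library. The fits were tested on simulated data.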

Additional observations from a re-analysis of the deposited data

Results flagged for a closer look

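Of the 60 groups checked (30 tested members in each of 2 groups of 4 libraries), 2 had a library whose gap to the nearest other exceeded the 95% critical value of Dixon's ratio on the log2 CPM scale (prior count 2), and about 3 would by chance, since the limit is passed by about 1 in 20 groups. Hp had 26 counts in control 3 and 1 to 2 counts in the other controls, a ratio of 0.847. Cr1l had 1590 counts in control 3 and 1054 to 1209 in the other controls, a ratio of 0.866. On the linear CPM scale the ratios were 0.949 for Hp and 0.882 for Cr1l, and a further group, the β-tetO-NICD libraries of Cd46, exceeded the limit, with library 5 highest (0.862, against 0.718 on the log2 scale), a scale tried after the data were seen. Both Hp and Cr1l were highest in control 3. Control 3 is the control with a negative trend of gene level with transcript length.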

How the results depend on the processing

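Among all genes, 1020 were called, 2739 with DESeq2, 610 with the length trend as a covariate, 1556 with the length offset, 122 in the libraries without Eif2s3y counts, and between 374 (without β-tetO-NICD library 2) and 5010 (without library 1) when each library was left out, with 488, 497, 427 and 432 without control 1, 2 or 4 or β-tetO-NICD library 4. Among the members, 4 were called higher, 7 with DESeq2 (C2, Cfb and Serping1 added), 2 without Eif2s3y libraries (C1ra and Cfb) and between 3 and 9 when each library was left out (9 without β-tetO-NICD library 1), and 0 were called lower, 1 with DESeq2 and between 0 and 1 when each library was left out (Masp2, without β-tetO-NICD library 1). The replicate block gave 969 calls and 5 members higher, with Cfb added (adjusted p = 0.0125). Same-numbered libraries had deviations correlated at 0.28 (number 1) and -0.09 (number 2), and with 2 such pairs the numbers were not taken to pair the mice.

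The members whose sign turned were called in no analysis, except C1qc, called in 1 that left out a library, and the cause was not tested. With the length offset the log2 fold changes were -0.0699 for C1qc, 0.0884 for C3 and -0.22 for Cd59a. With the length trend as a covariate they were 0.46 for Masp1, 0.66 for C3, 0.19 for Cd55, -0.0864 for Cd46, -0.13 for Cd59a and 0.043 for Fgb. Without Eif2s3y libraries they were 1.04 for Masp1, 1.04 for C3, 0.55 for Cd55, -0.49 for Cd46, -0.12 for Cd59a and 0.45 for Serpina3n. With the replicate block they were 0.052 for C3, -0.013 for Cd46 and 0.10 for Lcn2, with limma-voom -0.25 for Cd46 and 0.12 for Lcn2, and with upper-quartile scaling 0.037 for Lcn2. Leaving out each library gave -0.14 to 0.80 for C4b, -0.88 to 0.35 for Masp1, -0.56 to 0.60 for C3, -0.30 to 0.19 for Cd55, -0.74 to 0.36 for Cd46, -0.16 to 0.21 for Cd59a, -0.53 to 0.64 for Lcn2, -0.13 to 0.60 for Cp, -0.0384 to 1.08 for Lrg1, -0.93 to 0.28 for Fgb and -0.46 to 0.0287 for Serpina3n. Of 595 alternative values, 518 kept direction and call, 46 turned sign, 19 gained a call and 12 lost one. Members under the count minimum were tested only without that filter, which gave log2 fold changes of 3.36 for Cfd, 2.81 for Ptx3, 1.56 for Fgg, 0.60 for Orm2, 0.60 for Saa3, 0.34 for Hpx, 0.02 for Saa1, 0.01 for Fga and -0.56 for A2m, none called (lowest adjusted p 0.235). They had at most 16 counts in any library.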
